A study of Arabidopsis thaliana with 40 samples.

Results

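FLC, its 5 close relatives MAF1 to MAF5, and the floral integrators and regulators AGL20 (widely called SOC1), SVP, FT and TSF were followed through root and shoot transcriptomes of Arabidopsis thaliana seedlings. These 10 genes of the 27655 listed were chosen by locus, because FLC was high and AGL20 was low in taf12-t1 against wt. For that reason every value of taf12-t1 against wt, in either tissue, is given as a description and carries no test. The other comparisons were not themselves used to choose the genes and were tested. Those against wt share the wt libraries on which the choice rested, so they are not independent of it.

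Messenger RNA was sequenced from 40 libraries, 4 for each of 5 genotypes in root and in shoot (the aerial part). The taf12-t1 line carries the T-DNA insertion WiscDsLoxHs044_12E in TAF12, and nbr6-t1 carries the insertion GABI_172C03 in its paralog TAF12B. Both genes encode subunits of TFIID, a general transcription factor of RNA polymerase II. The line nobiro6 was labelled as a suppressor mutant that carries a further mutation, written only as "a", on the bzip1728 double mutant. The double mutant itself is bz1728 (SALK_004048 and SALK_132285). Its name stands for BZIP17 and BZIP28, a pair of regulators that leave their membranes when misfolded proteins accumulate and then activate transcription. The wild type (wt) was Col-0. Each mutant genotype was represented by a single line, and no number of plants per library was given. Seeds of every group spent 3 d in the dark at 4 °C, and seedlings then grew on agar under 16 h of light at 22 °C with a humidity of 65%. No longer cold treatment is named. Seedlings were 12 d old in the protocol and 13 days from sowing in the sample labels. Nothing in them says whether the 4 replicates were separate cultures, so p-values measure the spread between these libraries, which may be technical.

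FLC encodes a MADS-box transcription factor that represses flowering, and MAF1 (also FLM) to MAF5 encode related repressors of the same clade. SVP encodes another MADS-box repressor, which acts together with FLC and MAF proteins. FT and its paralog TSF encode mobile flowering signals made in leaf veins under long days, and AGL20 encodes a MADS-box activator that integrates these inputs at the shoot tip. FLC and SVP bind and repress FT and AGL20, while the autonomous pathway keeps FLC low in Col-0, an accession without a functional FRI allele.

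The kinship of these genes is visible at the start of their coding sequences, which is shown here because near-identical stretches also decide how far reads can be assigned to a single member. The 60 coding bases below were read from the RefSeq annotation of TAIR10.1 for the transcript listed for each gene, and capitals mark bases that differ from FLC at the same position. For MAF5 the window starts 21 coding bases in, at the in-frame ATG that lines up with that of FLC.
FLC: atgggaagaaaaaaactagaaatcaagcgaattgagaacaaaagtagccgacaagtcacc
MAF1: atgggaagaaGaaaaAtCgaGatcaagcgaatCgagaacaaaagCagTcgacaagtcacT
MAF2: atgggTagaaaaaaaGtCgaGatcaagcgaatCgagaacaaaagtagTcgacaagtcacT
MAF3: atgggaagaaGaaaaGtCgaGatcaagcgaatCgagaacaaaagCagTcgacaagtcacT
MAF4: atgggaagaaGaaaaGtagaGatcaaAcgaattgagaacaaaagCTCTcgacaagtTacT
MAF5: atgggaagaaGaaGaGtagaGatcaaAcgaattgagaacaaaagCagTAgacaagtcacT
AGL20: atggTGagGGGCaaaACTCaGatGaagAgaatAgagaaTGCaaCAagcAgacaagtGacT
SVP: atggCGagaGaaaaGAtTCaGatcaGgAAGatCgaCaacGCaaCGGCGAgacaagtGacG

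These windows lie at chr5:3179280-3179339 (minus strand) for FLC, chr1:28955679-28955738 (plus) for MAF1, chr5:25982415-25982474 (plus) for MAF2, chr5:25987527-25987586 (plus) for MAF3, chr5:25992310-25992369 (plus) for MAF4, chr5:25997671-25997730 (plus) for MAF5, chr2:18810134-18810193 (minus) for AGL20 and chr2:9580417-9580476 (plus) for SVP. All are exonic. The MAF members differed from FLC at 7 to 10 of the 60 positions, against 22 for AGL20 and 24 for SVP. MAF2, MAF3, MAF4 and MAF5 lie next to each other on chromosome 5, far from FLC. FT (AT1G65480) and TSF (AT4G20370) belong to another protein family and were not aligned.

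Shared sequence touched some members and not others. FLC (AT5G10140), AGL20 (AT2G45660), SVP (AT2G22540), FT and TSF shared no 31-base word with another listed transcript, so no read of that length could pass between them. MAF1 (AT1G77080) shared 4.6% of its words, MAF2 (AT5G65050) 13.1%, MAF3 (AT5G65060) 13.2%, and MAF4 (AT5G65070) and MAF5 (AT5G65080) 1.84% each. Of the 1043 words of MAF2, 114 recur in MAF3, and the longest run that any pair of clade members shares is the 61 bases between MAF1 and MAF3, printed here in capitals throughout.
MAF1 and MAF3: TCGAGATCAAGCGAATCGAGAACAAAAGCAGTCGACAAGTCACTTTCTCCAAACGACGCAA

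How reads from these stretches were divided is uncertain, and the levels of MAF2 and MAF3 carry that limit. A different limit holds for FLC. Its antisense locus AT5G01675, with 6 annotated transcripts on the opposite strand, covers 67.3% of the 31-base words of FLC and is not listed in the deposited tables. No use of strand is stated in the sources used here, so sense and antisense reads of FLC cannot be told apart.

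Library totals ran from 2.66 to 8.2 M counts in root (median 4.45 M) and from 3.42 to 12.9 M in shoot (median 5.08 M, M being 1000000). By these raw totals, 1 count stood for at most 0.375 CPM (counts per 1000000) in root and 0.292 CPM in shoot. CPM values of genes are given after scaling. Tissue labels fitted their markers: the summed level of 8 green tissue genes ran from 124 to 579 TPM (transcripts per 1000000, corrected for length) in root and from 33000 to 41100 TPM in shoot. The targeted genes did not all follow the labels. TAF12 stood at 20.6 ± 3.89 CPM in the root libraries labelled taf12-t1 against 10.2 ± 0.514 CPM in wt root, and at 6.97 ± 1.55 against 9.95 ± 0.975 CPM in shoot (SD, n = 4 each). TAF12B stood at 14.2 ± 2.39 CPM in nbr6-t1 shoot against 48.7 ± 5.07 CPM in wt shoot, but at 58.8 ± 4.8 against 53.1 ± 5.32 CPM in root. BZIP28 had 0 counts in all 8 bz1728 libraries, yet 13.9 ± 3.32 CPM in root and 26.9 ± 3.26 CPM in shoot of the libraries labelled nobiro6. The position of an insertion within the counted transcript is not given, so these levels do not settle the genotypes, and genotype names below are those of the labels.

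In the root libraries labelled taf12-t1, FLC was far above its level in any other group. Its counts there were 47, 23, 35 and 40, against 0, 9, 2 and 0 in the deeper wt root libraries. Scaled for depth, FLC had 13.6, 7.12, 11.2 and 8.17 CPM in taf12-t1 root, against 0, 1.1, 0.418 and 0 CPM in wt root. The lowest taf12-t1 library therefore stood above the highest wt library, as it did for 17.6% of all genes tested in root. The fitted difference was 4.42 ± 0.52 on the log2 scale (taf12-t1 minus wt, ± SE), a 21.4-fold higher level. Pooled over its libraries, FLC stood at 9.86 CPM in taf12-t1 root (95% exact Poisson interval 8.32 to 11.6) and at 0.447 CPM in wt root (0.223 to 0.801). These intervals cover counting error only. The size of the fold rests on few wt counts, since without wt root replicate 2, which holds 9 of the 11, the fitted value was 6.06.

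In shoot the difference was smaller in fold terms, because wt was higher there. FLC counts were 42, 44, 51 and 38 in shoot libraries labelled taf12-t1, against 6, 14, 14 and 7 in wt shoot. In CPM these are 8.74, 9.42, 8.17 and 9.3 in taf12-t1 shoot, against 0.758, 1.55, 1.11 and 0.944 in wt shoot, again without overlap, as for 18.6% of all genes tested in shoot. The fitted log2 difference was 2.99 ± 0.32, a 7.94-fold higher level, and the root change exceeded the shoot change by 1.45 ± 0.68. Within taf12-t1, in the joint scaling of all 40 libraries, FLC stood at 8.1 ± 2.4 CPM in root and 11 ± 0.637 CPM in shoot. FLC had the 9th highest log2 fold change of 18745 genes tested in root and the 37th highest of 17382 in shoot.

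**Figure D1:**
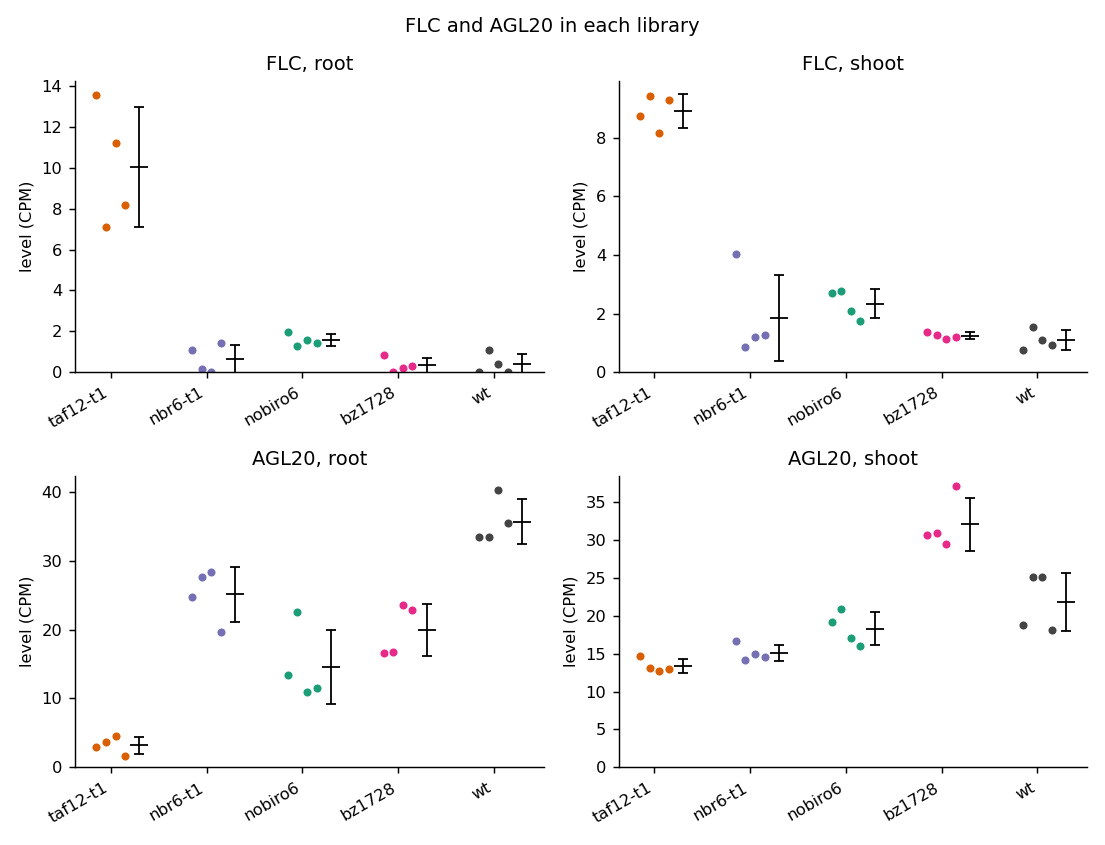
FLC (top) and AGL20 (bottom) in CPM in root (left) and shoot (right), with genotypes on the horizontal axis, 1 point per library in replicate order, and the mean ± SD of 4 libraries as a bar beside the points (bars that pass below 0 are cut at the axis). FLC in taf12-t1 stands at 7.12 CPM or above in root and 8.17 CPM or above in shoot, over every library of the other genotypes, while AGL20 in taf12-t1 root stays at 4.49 CPM or below.

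The other clade members did not share this rise as a group. MAF1, a repressor best known for its response to ambient temperature, stood at 51.6 ± 4.58 CPM in taf12-t1 root against 40.2 ± 3.64 CPM in wt root (log2 difference 0.34 ± 0.09). In shoot it stood at 37.6 ± 4.79 CPM in taf12-t1 against 23.7 ± 2.04 CPM in wt (0.66 ± 0.13). MAF1 lay above wt without overlap in both tissues, as did 17.6% of all genes tested in root and 18.6% in shoot. MAF2, which delays flowering after short cold spells, differed by -0.11 ± 0.07 in root and 0.01 ± 0.09 in shoot, with overlapping libraries in each. MAF3 was lower in taf12-t1 root, at 11 ± 2.95 CPM against 15.2 ± 1.71 CPM in wt (-0.46 ± 0.17), and differed by 0.20 ± 0.16 in shoot. MAF3 in taf12-t1 root had 13, 6.81, 13.2 and 11 CPM, and without the low replicate 2 the difference was -0.30.

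MAF5 was the member with the largest log2 difference in taf12-t1 shoot, although from very few wt counts. Its counts were 9, 33, 51 and 14 in taf12-t1 shoot, against 1, 4, 1 and 3 in wt shoot. This is 1.87, 7.07, 8.17 and 3.43 CPM in taf12-t1, against 0.126, 0.442, 0.079 and 0.404 CPM in wt. The taf12-t1 libraries varied widely among themselves, yet all lay above wt, as for 18.6% of all genes tested in shoot. The fitted log2 difference was 4.29 ± 0.68, the 6th highest of the genes tested in shoot, a fit that MAF5 entered only through these taf12-t1 libraries. In root MAF5 held 2 to 5 counts per taf12-t1 library, against 1 to 7 in wt, and did not pass the filter on low counts. MAF4 did not pass in either tissue. It stood at 1.62 ± 0.465 CPM in taf12-t1 root against 1.02 ± 0.417 CPM in wt root, and at 1.18 ± 0.323 against 0.807 ± 0.478 CPM in shoot, with overlapping libraries.

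Because TPM values are scaled by transcript length, the clade can be compared between its members on that scale. MAF1 and MAF2 together made up 72 to 89.6% of the summed clade TPM, depending on the group. FLC made up 7.8 ± 1.76% of the clade in taf12-t1 root against 0.33 ± 0.446% in wt root, and 9.63 ± 1.05% in taf12-t1 shoot against 1.71 ± 0.431% in wt shoot. The summed level itself was 187 ± 14.6 TPM in taf12-t1 root against 185 ± 5.83 TPM in wt root, and 109 ± 8.74 TPM against 77.2 ± 7.07 TPM in shoot. On the TPM scale the median log2 difference of all genes moved to -0.14 in taf12-t1 root and -0.08 in shoot, so equal sums are not equal levels relative to other genes. In taf12-t1, FLC thus reached 14.7 ± 4.25 TPM in root and 10.4 ± 0.75 TPM in shoot, close to the MAF3 levels of 14.2 ± 3.71 TPM and 9.88 ± 1.16 TPM, while MAF2 stood at 82.4 ± 5.23 TPM and 36.9 ± 3.65 TPM.

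**Figure D2:**
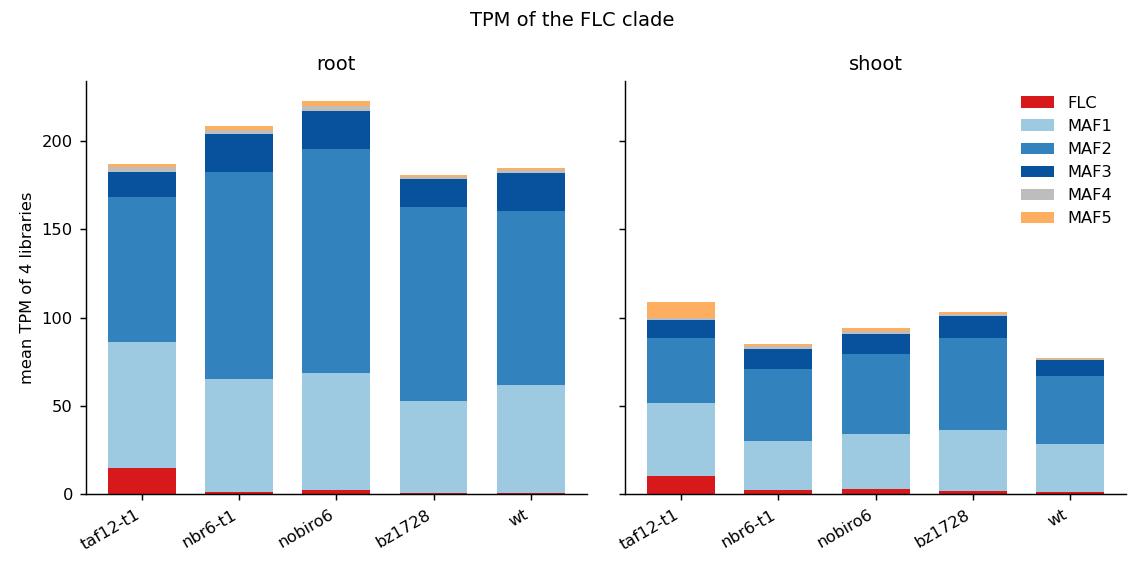
Mean TPM of 4 libraries for FLC and MAF1 to MAF5, stacked from the bottom in that order, by genotype in root (left) and shoot (right). MAF1 and MAF2 form most of every bar, and FLC is visible as a thick bottom segment only in taf12-t1, where it is 7.8% of the sum in root and 9.63% in shoot, with MAF5 as a further segment in taf12-t1 shoot.

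AGL20 was the member that fell furthest in libraries labelled taf12-t1. In root it had 2.89, 3.72, 4.49 and 1.63 CPM in taf12-t1, against 33.5, 33.4, 40.3 and 35.5 CPM in wt. All taf12-t1 root libraries were below all others of any genotype. Below wt alone they lay without overlap, as for 17.9% of all genes tested in root. The log2 difference was -3.55 ± 0.25, and only 20 of the 18745 genes tested in root had a lower value. In shoot AGL20 had 14.8, 13.1, 12.7 and 13 CPM in taf12-t1, against 18.8, 25.2, 25.2 and 18.2 CPM in wt, a log2 difference of -0.72 ± 0.13. Its change in root was lower than its change in shoot by 2.80 ± 0.29 on the log2 scale.

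SVP was lower as well in taf12-t1 root. It stood at 9.97 ± 0.968 CPM there, against 16.9 ± 2.39 CPM in wt root, a log2 difference of -0.78 ± 0.17. Its libraries lay below wt without overlap, as for 17.9% of all genes tested in root. In shoot, where SVP is far more abundant, it stood at 61.6 ± 6.65 CPM in taf12-t1 against 67.4 ± 1.24 CPM in wt (-0.13 ± 0.09, overlapping). FT counts in shoot were 1, 2, 6 and 2 in taf12-t1 against 11, 15, 5 and 8 in the deeper wt libraries, or 0.522 ± 0.317 CPM against 1.13 ± 0.544 CPM, with overlap. TSF had no count in taf12-t1 shoot and 1 in wt shoot, so nothing can be said of it there.

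Across the members, edgeR's threshold (adjusted p under 0.05) was passed in taf12-t1 root by 2 higher and 3 lower of the 6 genes that could be tested. Over all genes 19.5% were called higher and 19.8% lower. In shoot 3 of 7 were higher and 1 lower, against 20.3% and 20.4% of all genes. Since the genes were chosen on this contrast, nothing is read from these counts. FLC in root and MAF5 in shoot passed the filter on low counts only through the taf12-t1 libraries. Other features moved along with the genotype. The summed green marker level was 124 to 177 TPM in taf12-t1 root against 376 to 406 TPM in wt root, the summed root marker level was 399 to 541 TPM in taf12-t1 shoot against 163 to 397 TPM in wt shoot, and the summed level of 8 clock genes was 560 to 618 TPM in taf12-t1 shoot against 651 to 835 TPM in wt shoot. Single clock genes went both ways, 4 of 8 higher and 2 lower, with ELF4 at 4.46 and LUX at 1.99 against CCA1 at -1.04 (log2 difference). The part of these markers in the changes of the members was not tested. In such bulk tissue, fewer cells of a type and less RNA per cell cannot be told apart.

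The line nbr6-t1, with its insertion in the paralog TAF12B, was compared with wt, and AGL20 fell in both tissues. In shoot AGL20 had 16.7, 14.2, 15 and 14.5 CPM in nbr6-t1, against 18.8, 25.2, 25.2 and 18.2 CPM in wt. Every nbr6-t1 library was below every wt library, as for 8.26% of all genes tested in shoot, and the log2 difference was -0.54 ± 0.12 (edgeR adjusted p = 0.0064). In root AGL20 had 24.7, 27.6, 28.4 and 19.7 CPM in nbr6-t1, against 33.5, 33.4, 40.3 and 35.5 CPM in wt (-0.48 ± 0.16, edgeR adjusted p = 0.033). The root call was lost on the TPM scale (limma adjusted p = 0.15) and without wt root replicate 3 or 4 or nbr6-t1 root replicate 1 or 4 (edgeR adjusted p = 0.067 to 0.092). The change did not differ detectably between root and shoot (difference 0.11 ± 0.21, edgeR adjusted p = 0.87).

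FLC was not called in nbr6-t1. In root it had 7, 1, 0 and 4 counts in nbr6-t1 against 0, 9, 2 and 0 in wt (log2 difference 0.46 ± 0.84, edgeR adjusted p = 0.74). In shoot its counts were 25, 5, 6 and 6 in nbr6-t1 against 6, 14, 14 and 7 in wt, or 4.05, 0.866, 1.2 and 1.26 CPM against 0.758, 1.55, 1.11 and 0.944 CPM. A single nbr6-t1 library stood out, and the other 3 lay within the wt range. The fitted difference of 0.78 ± 0.37 (edgeR adjusted p = 0.23) was 0.00 ± 0.36 without that library. MAF2 rose slightly in nbr6-t1 root, to 73.4 ± 5.1 CPM against 62.5 ± 0.695 CPM in wt (0.24 ± 0.07, edgeR adjusted p = 0.015). This call was lost without nbr6-t1 root replicate 2 or 3 (edgeR adjusted p = 0.063 and 0.081). MAF1, MAF3 and SVP were not called in either tissue, nor MAF2 and MAF5 in shoot, where the MAF5 difference was 1.61 ± 0.90 (edgeR adjusted p = 0.32). FLC in root and MAF5 in shoot entered these fits only through taf12-t1, so nothing is read from their lack of a call.

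Thus 1 member was higher and 1 lower of 6 tested in nbr6-t1 root, beside 6.96% of all genes higher and 13.5% lower, and 1 of 7 was lower and 0 higher in shoot, beside 5.94% lower and 1.56% higher. The 6 include FLC and the 7 include MAF5, with the limit just given. The 8 members compared between the tissues also include MAF5. Whether it passes the filter of that fit without taf12-t1 was not checked, so nothing is read from its lack of a call. For the difference between the tissues, edgeR called 0 of the 8 members (DESeq2 also 0, and 1 at an unadjusted p under 0.05), against 1.77% of all genes higher and 0.630% lower. The green marker sum was 517 to 579 TPM in nbr6-t1 root against 376 to 406 TPM in wt root, and the root marker sum was 5210 to 6850 TPM against 7350 to 7740 TPM, with 3 of 6 root markers called lower. The part of these in the root results was not tested.

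**Figure D3:**
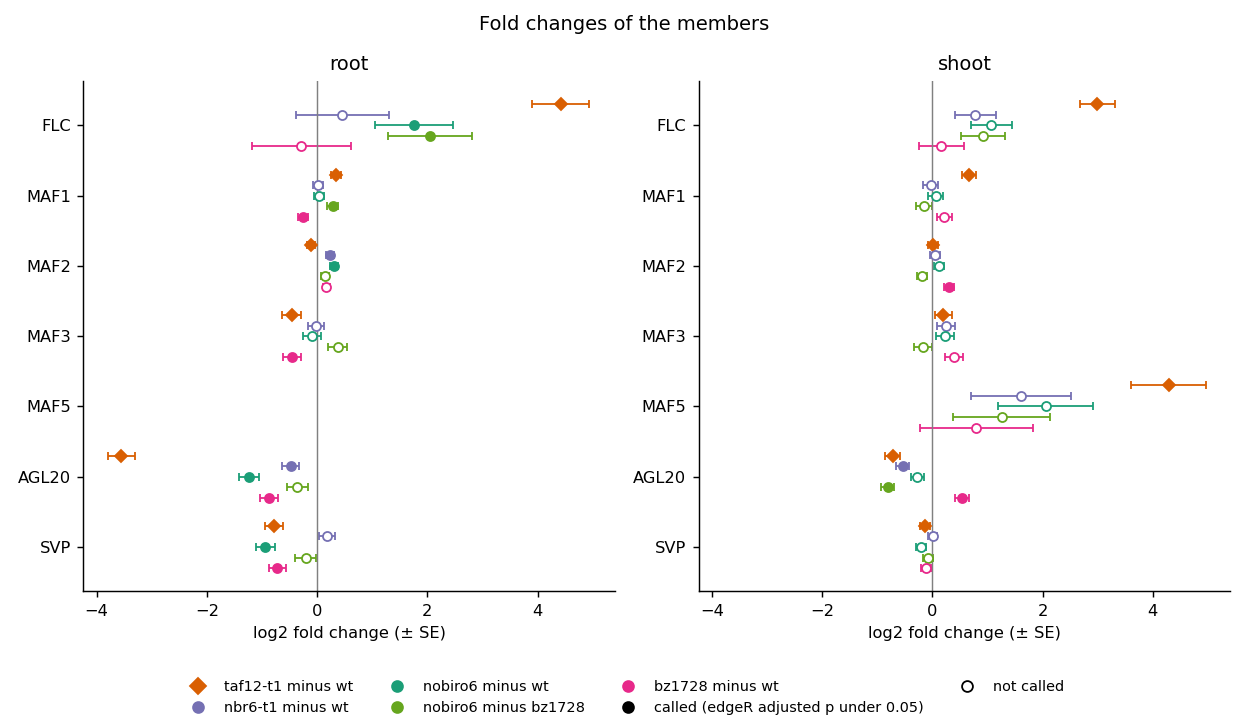
Log2 fold change (horizontal axis, ± SE) of the 7 members that passed the filter, in root (left) and shoot (right), with 1 marker per comparison (diamonds for taf12-t1 minus wt, which is a description, and circles for tested comparisons, filled where called). FLC reaches 4.42 in root and 2.99 in shoot in taf12-t1 (in root it passed the filter only through those libraries), AGL20 reaches -3.55 in root, and AGL20 in bz1728 minus wt lies on opposite sides of 0 in root (-0.87) and shoot (0.54). MAF5 was not tested in root.

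In bz1728 against wt, AGL20 moved in opposite directions in root and shoot. In root it fell to 16.6, 16.8, 23.5 and 22.9 CPM in bz1728, against 33.5, 33.4, 40.3 and 35.5 CPM in wt (log2 difference -0.87 ± 0.16, edgeR adjusted p = 0.00011). In shoot it rose to 30.6, 30.9, 29.5 and 37.2 CPM in bz1728, against 18.8, 25.2, 25.2 and 18.2 CPM in wt (0.54 ± 0.12, edgeR adjusted p = 0.0018). Libraries of the genotypes did not overlap in either tissue. Over all genes tested, 18.9% lay below wt without overlap in bz1728 root and 10.2% above wt in bz1728 shoot. Tested in a joint fit of all 40 libraries, the root change was lower than the shoot change by 1.37 ± 0.21 (edgeR adjusted p = 2.5e-06).

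SVP and MAF3 also fell in bz1728 root. SVP had 9.5, 7.97, 12.2 and 12.9 CPM in bz1728 root, against 13.8, 18.1, 19.2 and 16.4 CPM in wt root (-0.72 ± 0.16, edgeR adjusted p = 0.00042), and the highest bz1728 library lay just below the lowest wt library. In shoot SVP stood at 61.6 ± 7.13 CPM in bz1728 against 67.4 ± 1.24 CPM in wt, which was not called (-0.12 ± 0.09, edgeR adjusted p = 0.35). The SVP change was lower in root than in shoot by 0.57 ± 0.17 (edgeR adjusted p = 0.014), a call that was lost without bz1728 root replicate 2 (edgeR adjusted p = 0.082). MAF3 stood at 11.1 ± 0.82 CPM in bz1728 root against 15.2 ± 1.71 CPM in wt root (-0.46 ± 0.16, edgeR adjusted p = 0.017) and at 11 ± 2.08 against 8.42 ± 0.528 CPM in shoot (0.39 ± 0.16, edgeR adjusted p = 0.088). The root call of MAF3 was lost without wt root replicate 3 or bz1728 root replicate 2 (edgeR adjusted p = 0.059 and 0.056). Its changes differed between the tissues by -0.82 ± 0.23 (edgeR adjusted p = 0.0058).

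MAF1 was slightly lower in bz1728 root, at 34 ± 4.51 CPM against 40.2 ± 3.64 CPM in wt (-0.25 ± 0.09, edgeR adjusted p = 0.031). The libraries overlapped, and the call was lost in DESeq2 (adjusted p = 0.051) and without wt root replicate 2 or 4 or bz1728 root replicate 2 or 4 (edgeR adjusted p = 0.086 to 0.17). MAF2 rose in bz1728 shoot to 40.3 ± 4.54 CPM against 32.5 ± 2.01 CPM in wt (0.31 ± 0.09, edgeR adjusted p = 0.019), which was lost without wt shoot replicate 4 or bz1728 shoot replicate 1 or 2 (edgeR adjusted p = 0.054 to 0.063). In root MAF2 stood at 70.4 ± 5 CPM in bz1728, without overlap with wt at 62.5 ± 0.695 CPM, as for 17.2% of all genes tested, but was not called (0.17 ± 0.07, edgeR adjusted p = 0.057). FLC was not called in either tissue, with 0.341 ± 0.369 CPM in bz1728 root against 0.38 ± 0.52 CPM in wt root and 1.25 ± 0.109 against 1.09 ± 0.337 CPM in shoot.

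In all, 4 of 6 members were lower and 0 higher in bz1728 root, beside 20.7% of all genes lower and 18.2% higher. In shoot 2 of 7 were higher and 0 lower, beside 8.40% higher and 9.42% lower. The 6 in root include FLC and the 7 in shoot include MAF5. Both entered these fits only through taf12-t1, so nothing is read from their lack of a call. Between the tissues 3 of 8 members differed with the root change the lower, beside 10.9% of all genes in that direction and 12.0% in the other. The 8 include MAF5, with the limit given for nbr6-t1. Marker sums moved with bz1728 in root: green markers summed to 155 to 325 TPM in bz1728 root against 376 to 406 TPM in wt root, and root markers to 4810 to 5840 TPM against 7350 to 7740 TPM. In bz1728 shoot 3 of 8 clock genes were called higher and 1 lower (median log2 difference 0.49). Of 8 green markers there, 3 were lower and 0 higher (median -0.21). The part of these in the changes of the members was not tested in either tissue.

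The libraries labelled nobiro6 were compared with bz1728, the background their label gives, and with wt. These comparisons share bz1728 and wt libraries with those above and with each other, and BZIP28 also differed between nobiro6 and bz1728. FLC was low but steadily present in nobiro6. In root its counts were 8, 7, 7 and 4 in nobiro6, against 6, 0, 1 and 1 in bz1728. In CPM it had 1.94, 1.28, 1.59 and 1.43 in nobiro6 root, against 0.864, 0, 0.214 and 0.286 in bz1728 root, and 0, 1.1, 0.418 and 0 in wt root. Each nobiro6 library thus lay above each library of bz1728 and of wt. Such a separation was seen in 11.6% of all genes tested in root against bz1728 and 16.3% against wt. The fitted log2 difference was 2.05 ± 0.76 from bz1728 (edgeR adjusted p = 0.039) and 1.76 ± 0.71 from wt (edgeR adjusted p = 0.047). FLC was in this fit only because the taf12-t1 libraries carried it past the filter on low counts, and in a fit of only the libraries compared it did not pass, so no rise is read from these values. Without the filter the adjusted p was 0.043 against bz1728 and 0.053 against wt. DESeq2 called neither (adjusted p = 0.051 and 0.058), a replicate block ended the call against wt (1.67, edgeR adjusted p = 0.058), and the calls were lost without any single library compared, except bz1728 root replicate 1 in the comparison with bz1728 and wt root replicate 2 in that with wt. The edgeR adjusted p then ran from 0.054 to 0.12 against bz1728 and from 0.064 to 0.14 against wt.

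In shoot FLC had 2.7, 2.79, 2.08 and 1.76 CPM in nobiro6, against 1.38, 1.28, 1.13 and 1.2 CPM in bz1728 and 0.758, 1.55, 1.11 and 0.944 CPM in wt. The nobiro6 libraries again did not overlap either group, but neither difference was called, at 0.92 ± 0.40 against bz1728 (edgeR adjusted p = 0.11) and 1.07 ± 0.37 against wt (edgeR adjusted p = 0.058). Of all genes tested in shoot, 8.52% lay above bz1728 and 6.24% above wt without overlap. The difference from wt was called on the TPM scale, on which the median of all genes moved to 0.12 (0.98 ± 0.28, limma adjusted p = 0.025), and without wt shoot replicate 2 (1.28, edgeR adjusted p = 0.045). The root and shoot changes against bz1728 did not differ detectably (1.16 ± 0.85, edgeR adjusted p = 0.4). FLC made up 1.19% of the clade TPM in nobiro6 root and 3.26% in nobiro6 shoot, well under the shares in taf12-t1.

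AGL20 was lower in nobiro6 than in bz1728 in shoot and lower than in wt in root. In shoot it had 19.2, 20.9, 17 and 16 CPM in nobiro6, against 30.6, 30.9, 29.5 and 37.2 CPM in bz1728 (-0.81 ± 0.12, edgeR adjusted p = 3.8e-05), without overlap, as for 12.9% of all genes tested in shoot. Against wt shoot, at 21.9 ± 3.87 CPM, the difference was not called (-0.27 ± 0.12, edgeR adjusted p = 0.17). In root AGL20 had 13.4, 22.5, 10.9 and 11.4 CPM in nobiro6, against 16.6, 16.8, 23.5 and 22.9 CPM in bz1728 and 33.5, 33.4, 40.3 and 35.5 CPM in wt. The difference from wt was -1.24 ± 0.18 (edgeR adjusted p = 2.7e-06). That from bz1728 was not called (-0.36 ± 0.19, edgeR adjusted p = 0.15), but it was -0.71 (edgeR adjusted p = 0.0022) without nobiro6 root replicate 2, the library at 22.5 CPM.

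Of the repressors besides FLC, SVP was lower in nobiro6 root than in wt, at 8.85 ± 0.65 CPM against 16.9 ± 2.39 CPM (-0.94 ± 0.17, edgeR adjusted p = 3.7e-05), and not called against bz1728 (-0.21 ± 0.19, edgeR adjusted p = 0.41). MAF2 rose in nobiro6 root against wt, to 77.7 ± 3.54 CPM against 62.5 ± 0.695 CPM (0.31 ± 0.07, edgeR adjusted p = 0.00064). MAF1 rose in nobiro6 root against bz1728, to 41.4 ± 2.88 CPM against 34 ± 4.51 CPM (0.28 ± 0.10, edgeR adjusted p = 0.026), a call lost without bz1728 root replicate 2 or 4 or nobiro6 root replicate 1 (edgeR adjusted p = 0.074 to 0.13). The MAF2 change against bz1728 was higher in root than in shoot by 0.36 ± 0.11 (edgeR adjusted p = 0.02). DESeq2 did not call it (adjusted p = 0.054), and it was lost without bz1728 shoot replicate 2 or nobiro6 shoot replicate 1 (edgeR adjusted p = 0.055 and 0.056). MAF5 in nobiro6 shoot had 14, 3, 5 and 0 counts against 1, 4, 1 and 3 in wt shoot, and its difference of 2.06 ± 0.86, in a fit it entered only through taf12-t1, was not called (edgeR adjusted p = 0.13).

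Apart from FLC, for the reason given above, 1 of 5 members was higher (MAF1) and 0 lower in nobiro6 root against bz1728, beside 12.8% and 18.9% of all genes, and 1 of 7 was lower and 0 higher in shoot, beside 12.8% lower and 8.12% higher. Against wt, 1 of 5 was higher (MAF2) and 2 were lower in root, again apart from FLC, beside 18.9% and 23.9%. In shoot edgeR called 0 of 7 against wt, as did DESeq2, with 4 at an unadjusted p under 0.05, beside 3.66% of all genes higher and 8.47% lower. MAF5, which entered the shoot fit only through taf12-t1, is among the 7 and among those 4. Between the tissues, 1 of 8 members had the higher change in root for nobiro6 minus bz1728, beside 8.74% of all genes, and 0 the lower, beside 7.10%. These 8 include MAF5, with the limit given for nbr6-t1. Green markers summed to 368 to 465 TPM in nobiro6 root against 155 to 325 TPM in bz1728 root, and root markers to 4200 to 4980 TPM in nobiro6 root against 7350 to 7740 TPM in wt root. In nobiro6 shoot against bz1728, 5 of 8 clock genes were lower and 0 higher (median -0.76). The part of these markers and clock genes in the results was not tested.

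Since nbr6-t1 is a TAF12B insertion line and TAF12B was lower in nobiro6 than in bz1728 (19.4 ± 3.4 against 45.7 ± 3.55 CPM in shoot and 26.2 ± 2.56 against 43.3 ± 2.53 CPM in root), the difference of nobiro6 from bz1728 was set against that of nbr6-t1 from wt. In nbr6-t1 TAF12B was lower than in wt in shoot but not in root. TAF12B was itself called unequal in root (-0.88 ± 0.13, edgeR adjusted p = 9.4e-06). BZIP28 differed by 8.97 ± 0.48 in root and 10.10 ± 0.45 in shoot, so these are not comparisons of TAF12B alone. No member was called as unequal by edgeR or DESeq2 in either tissue, and none had an unadjusted p under 0.05 in edgeR. Over all genes, 4.81% were called higher and 6.21% lower in root, and 0.547% and 0.725% in shoot. For AGL20 the 2 changes differed by 0.12 ± 0.25 in root and -0.27 ± 0.18 in shoot (edgeR adjusted p = 0.86 and 0.51). For FLC they differed by 1.58 ± 1.17 in root and 0.14 ± 0.56 in shoot (edgeR adjusted p = 0.48 and 0.95), errors so wide that sizeable differences would not have been detected. FLC in root and MAF5 in shoot entered these fits only through taf12-t1.

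Put in order, the root levels of FLC were 10 ± 2.94 CPM in taf12-t1, 1.56 ± 0.284 in nobiro6 and 0.662 ± 0.68 in nbr6-t1, with bz1728 (0.341 ± 0.369) and wt (0.38 ± 0.52) lowest and close together. In shoot they were 8.91 ± 0.575 CPM in taf12-t1, 2.33 ± 0.495 in nobiro6, 1.84 ± 1.48 in nbr6-t1, 1.25 ± 0.109 in bz1728 and 1.09 ± 0.337 in wt. In both tissues, neighbours in this order overlapped from nobiro6 downwards. For AGL20 the order in root, from the lowest, was taf12-t1 (3.18 ± 1.22 CPM), nobiro6 (14.6 ± 5.4), bz1728 (19.9 ± 3.79), nbr6-t1 (25.1 ± 3.96) and wt (35.7 ± 3.24). In shoot it was taf12-t1 (13.4 ± 0.952), nbr6-t1 (15.1 ± 1.11), nobiro6 (18.3 ± 2.19) and, highest, bz1728 (32.1 ± 3.47), with wt (21.9 ± 3.87) between nobiro6 and bz1728. In root neighbours from nobiro6 to nbr6-t1 overlapped, and in shoot all neighbours did except wt and bz1728. Over the 10 group means, centred within each tissue, FLC and AGL20 correlated at r = -0.89. This describes groups that share wt, and the pair was chosen for it.

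The tissues themselves were compared within wt, in the joint fit. SVP was much lower in wt root than in wt shoot, at 13.6 ± 1.94 CPM against 84.8 ± 1.9 CPM (log2 difference -2.63 ± 0.11, edgeR adjusted p = 3.5e-25). FLC was also lower in root, at 0.306 ± 0.419 against 1.37 ± 0.417 CPM (-1.90 ± 0.59, edgeR adjusted p = 0.0036). MAF2 was higher in root, at 50.4 ± 0.6 against 40.9 ± 2.54 CPM (0.30 ± 0.07, edgeR adjusted p = 0.00038). AGL20, at 28.8 ± 2.67 CPM in root against 27.5 ± 4.96 CPM in shoot, was not called (0.05 ± 0.14, edgeR adjusted p = 0.75), nor were MAF1, MAF3, MAF4 and MAF5. So 1 of 8 members was higher and 2 lower, beside 39.2% and 39.8% of all genes. The 8 include MAF5, with the same limit as in the other comparisons between the tissues. The scale matters here: on deposited TPM the median of all genes moved to 0.99 on the log2 scale, and MAF1 (1.16), MAF3 (1.22) and AGL20 (1.11) were then called higher in root too, by amounts close to that shift.

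FT was found in shoot only. All 20 root libraries had 0 FT counts, and all 20 shoot libraries had at least 1. Shoot counts were 1, 2, 6 and 2 in taf12-t1, 3, 4, 4 and 1 in nbr6-t1, 8, 9, 4 and 36 in nobiro6, 5, 6, 14 and 6 in bz1728, and 11, 15, 5 and 8 in wt. The 36 counts of nobiro6 shoot replicate 4 (7.91 CPM) stood apart from the 0.83 to 2.09 CPM of the other 3. TSF had 7 counts in all root libraries together and 7 in all shoot libraries, with 15 of 20 libraries at 0 in each tissue. FT, MAF4 and, in root, MAF5 were compared one by one with a two-sided exact permutation test in CPM, apart from the taf12-t1 comparisons. Of these 16 tests, none reached the smallest p the design allows (exact p = 0.0286), and the lowest was that of MAF4 in nobiro6 root, at 1.76 ± 0.563 CPM against 0.798 ± 0.521 CPM in bz1728 root (exact p = 0.0571, adjusted 0.533). Adjusted over the 16 tests, even a lone test at the smallest p could not have been called. The absence of calls was thus nearly fixed by the design and says nothing about these genes. FT in nbr6-t1 shoot stood at 0.547 ± 0.26 CPM against 1.13 ± 0.544 CPM in wt shoot (exact p = 0.143, adjusted 0.533). With these counts and this design, changes of a few fold were not detectable.

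**Figure D4:**
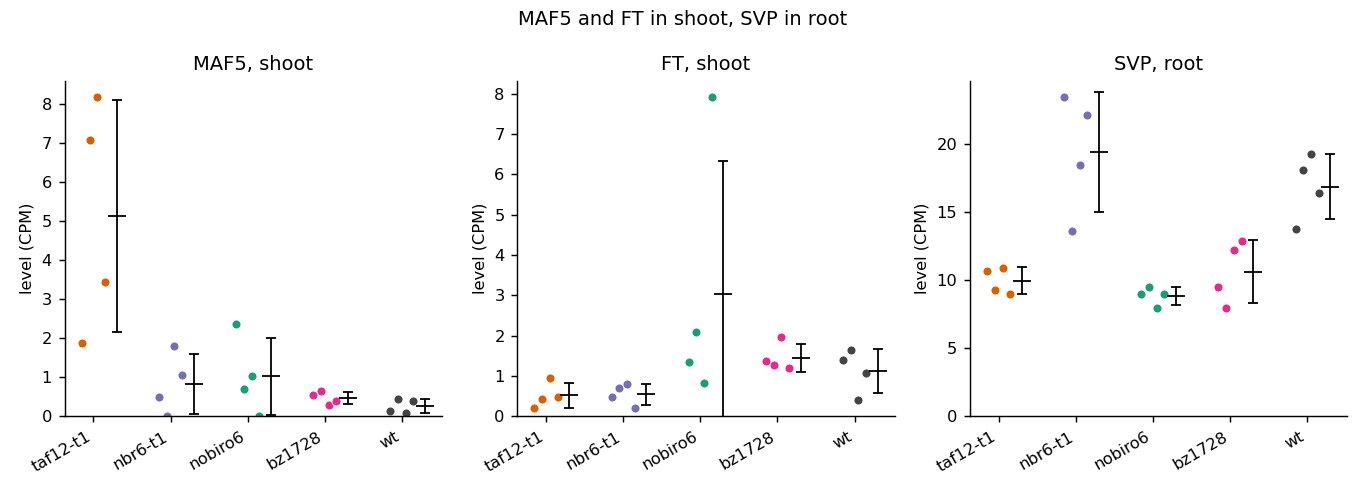
MAF5 and FT in shoot and SVP in root, in CPM per library by genotype, with the mean ± SD of 4 libraries as a bar (bars that pass below 0 are cut at the axis). MAF5 in taf12-t1 ranges from 1.87 to 8.17 CPM above wt at 0.442 CPM or below, FT has a single high library at 7.91 CPM in nobiro6, and SVP in root sits lower in taf12-t1, nobiro6 and bz1728 than in wt.

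Known regulators of FLC were read from lists of the pathway that were written with earlier results of these data known. In taf12-t1, as a description, 7 of 16 autonomous pathway genes, whose products keep FLC low, passed the threshold as higher in root and 4 in shoot. In either tissue 0 passed as lower. Over all genes, 19.5% were higher and 19.8% lower in root, and 20.3% higher and 20.4% lower in shoot, which holds for each list below. Nothing is read from the counts on this contrast. GRP7, an RNA-binding protein of this pathway, stood at 316 ± 26.5 CPM in taf12-t1 shoot against 58.8 ± 9.99 CPM in wt shoot (log2 difference 2.43 ± 0.20), and at 735 ± 52.1 against 424 ± 36.8 CPM in root (0.79 ± 0.09). FLK, another RNA-binding protein, differed by 0.35 ± 0.08 in root and 0.40 ± 0.08 in shoot. Of 24 FLC activators, 4 were higher and 3 lower in root, and 7 higher and 2 lower in shoot, among them PIE1 (0.38 ± 0.09) and ARP6 (-0.47 ± 0.10), both subunits of a histone-exchange complex. Of 13 tested Polycomb and vernalization genes, 5 were lower and 0 higher in taf12-t1 shoot, including VRN5 (-0.63 ± 0.11), EMF1 (-0.43 ± 0.10) and LHP1 (-0.51 ± 0.12). In root 3 were higher, among them the histone methyltransferase gene CLF (0.36 ± 0.08), and 4 lower.

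The median log2 difference over the autonomous pathway list was 0.17 in taf12-t1 root and 0.14 in taf12-t1 shoot, beside 0.00 and -0.02 over all genes tested.

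The same upstream lists were tested in the other comparisons. In nbr6-t1 shoot 0 of 16 autonomous pathway genes, 1 of 24 activators (ABH1, a cap-binding protein, 0.28 ± 0.07, edgeR adjusted p = 0.015) and 1 of 13 Polycomb genes (SWN, 0.35 ± 0.07, edgeR adjusted p = 0.0017) were called, all higher, beside 1.56% of all genes higher and 5.94% lower. In nobiro6 root against wt, 4 of 16 autonomous pathway genes and 3 of 24 activators were called, all higher, beside 18.9% of all genes, including GRP7 (0.53 ± 0.09, edgeR adjusted p = 9.6e-06), PRMT5 (0.50 ± 0.10, edgeR adjusted p = 7e-05) and ABH1 (0.58 ± 0.08, edgeR adjusted p = 2e-07). Of the 13 Polycomb genes there, 4 were higher and 2 lower, beside 18.9% and 23.9% of all genes, with VEL1 among the lower (-0.24 ± 0.06, edgeR adjusted p = 0.0018). In nobiro6 shoot the autonomous pathway genes called were lower: FPA against wt (-0.36 ± 0.09, edgeR adjusted p = 0.01), and FPA (-0.27 ± 0.09, edgeR adjusted p = 0.039) and GRP7 (-0.78 ± 0.21, edgeR adjusted p = 0.013) against bz1728. ABH1 was higher in bz1728 root as well (0.62 ± 0.08, edgeR adjusted p = 2.3e-08), and GRP7 in bz1728 shoot (0.99 ± 0.20, edgeR adjusted p = 0.0028). The median log2 fold change over all genes tested lay between -0.02 and 0.03 in the comparisons of genotypes.

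Regulators of FT, among them photoreceptor and clock output genes, were compared next. Of 19 tested in root and 23 in shoot, edgeR called 10 lower and 2 higher in nobiro6 root against bz1728, and 11 lower and 0 higher in shoot. Over all genes, lower calls also outnumbered higher ones, with 18.9% against 12.8% in root and 12.8% against 8.12% in shoot. Clock genes moved in the same shoot comparison, where 5 of 8 were lower and 0 higher (median -0.76), among them TOC1 (-0.87 ± 0.15, edgeR adjusted p = 2e-04) and ELF4 (-1.71 ± 0.35, edgeR adjusted p = 0.00087), and their part in the change of the FT regulators was not tested. The median log2 difference of the FT regulators was -0.25 in root and -0.31 in shoot, beside 0.03 and 0.02 over all genes tested. SMZ, an AP2-type repressor of FT, fell to 10.6 ± 3.23 CPM in nobiro6 shoot against 33.1 ± 6.05 CPM in bz1728 shoot (-1.65 ± 0.19, edgeR adjusted p = 1.2e-06). It rose in bz1728 shoot against 14.2 ± 3.38 CPM in wt (1.23 ± 0.17, edgeR adjusted p = 3.2e-05). GI, a clock-linked activator of CO and FT, fell to 31.1 ± 4.24 CPM in nobiro6 shoot against 70.1 ± 11.5 CPM in bz1728 shoot (-1.18 ± 0.12, edgeR adjusted p = 1.4e-07), and in nbr6-t1 shoot to 32 ± 2.4 CPM against 45.2 ± 6.16 CPM in wt (-0.49 ± 0.12, edgeR adjusted p = 0.0093). TEM1, a repressor of FT, rose in bz1728 root to 37.3 ± 4.97 CPM against 14.3 ± 1.24 CPM in wt (1.39 ± 0.14, edgeR adjusted p = 2.2e-10) and fell in nobiro6 root to 10.9 ± 2.08 CPM against bz1728 (-1.77 ± 0.15, edgeR adjusted p = 1.4e-11). Against wt, 8 of these genes fell and 0 rose in nbr6-t1 root, and 6 fell and 0 rose in its shoot, with medians of -0.26 and -0.07. Lower calls outnumbered higher ones over all genes there too, with 13.5% against 6.96% in root and 5.94% against 1.56% in shoot. Of 6 tested partners and relatives of FT, 5 fell and 1 rose in nobiro6 root against wt, beside 23.9% of all genes lower and 18.9% higher. In bz1728 root 4 fell and 2 rose, beside 20.7% lower and 18.2% higher.

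Of 18 listed genes that act with or after AGL20 in the flowering programme, 10 could be tested in shoot. In nbr6-t1 shoot 4 of the 10 fell and 0 rose, beside 5.94% of all genes lower, with a median log2 difference of -0.57 beside 0.00 over all genes tested. SPL3, a promoter of floral identity genes, fell to 2.97 ± 0.387 CPM in nbr6-t1 shoot against 8.6 ± 0.909 CPM in wt (-1.52 ± 0.21, edgeR adjusted p = 2.3e-05). FUL, a MADS-box partner of AGL20, fell to 0.363 ± 0.13 against 1.95 ± 0.269 CPM (-2.36 ± 0.42, edgeR adjusted p = 0.00058), and SPL5 to 0.379 ± 0.179 against 2.15 ± 0.802 CPM (-2.50 ± 0.46, edgeR adjusted p = 0.00096). In bz1728 shoot, where AGL20 rose, 3 of 10 rose and 0 fell (median 0.42), beside 8.40% of all genes higher and 9.42% lower (median 0.00). Those that rose included FUL at 6.06 ± 0.342 CPM against 1.95 ± 0.269 CPM in wt (1.61 ± 0.27, edgeR adjusted p = 0.00017) and SPL9 (0.89 ± 0.20, edgeR adjusted p = 0.0025). In nobiro6 shoot against bz1728, 5 fell and 0 rose (median -0.77), beside 12.8% of all genes lower and 8.12% higher (median 0.02). Those that fell included FUL (-2.28 ± 0.32, edgeR adjusted p = 1.1e-05), SPL3 (-1.12 ± 0.20, edgeR adjusted p = 0.00022) and SPL9 (-1.22 ± 0.22, edgeR adjusted p = 0.00023). In taf12-t1 shoot 2 were lower and 0 higher, as a description, beside 20.4% and 20.3% of all genes, with FUL at 0.775 ± 0.172 CPM (-1.35 ± 0.37) and SPL3 at 5.23 ± 0.922 CPM (-0.73 ± 0.19).

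In root 6 of the 18 were tested, and close relatives of AGL20 were among those that fell. Against wt, 1 fell and 0 rose in nbr6-t1, 4 fell and 1 rose in bz1728, and 3 fell and 0 rose in nobiro6. Of all genes, 13.5%, 20.7% and 23.9% were lower in these comparisons. In nobiro6 against bz1728, 2 rose and 2 fell (median 0.74), beside 12.8% of all genes higher and 18.9% lower. In taf12-t1, as a description, 2 were higher and 3 lower, beside 19.5% and 19.8%. AGL42, a MADS-box gene of the same subfamily, stood at 19.1 ± 2.25 CPM in taf12-t1, 34.8 ± 1.79 in nbr6-t1, 15.8 ± 2.25 in nobiro6, 28.2 ± 2.14 in bz1728 and 47.9 ± 7.56 in wt root. It fell against wt in nbr6-t1 (-0.48 ± 0.10, edgeR adjusted p = 0.00077), nobiro6 (-1.60 ± 0.12, edgeR adjusted p = 2.5e-13) and bz1728 (-0.76 ± 0.10, edgeR adjusted p = 1.8e-07). AGL14, a further member known to act in roots, fell in bz1728 root to 6.34 ± 2.8 CPM against 47 ± 6.75 CPM in wt (-2.91 ± 0.27, edgeR adjusted p = 1.3e-07), and stood higher in nobiro6 root, at 26.5 ± 7.45 CPM, than in bz1728 (2.14 ± 0.30, edgeR adjusted p = 2.6e-05). AGL19 fell in bz1728 root to 0.893 ± 0.81 CPM against 26.1 ± 6.03 CPM in wt (-5.10 ± 0.51, edgeR adjusted p = 3.8e-07) and in nobiro6 root to 2.88 ± 1.96 CPM (-3.05 ± 0.42, edgeR adjusted p = 1.5e-05). All 6 regulator lists together hold 102 genes, of which 84 were tested in root and 88 in shoot.

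The genes on either side of FLC were each tested in a different tissue. AT5G10130, detected in root, differed by 0.58 ± 0.14 in taf12-t1 root, and fell against wt in nbr6-t1 (-0.87 ± 0.15, edgeR adjusted p = 2e-04), bz1728 (-1.33 ± 0.15, edgeR adjusted p = 2.8e-07) and nobiro6 root (-1.87 ± 0.17, edgeR adjusted p = 9.3e-09). AT5G10150, on the other side and detected in shoot, differed by -1.05 ± 0.11 in taf12-t1 shoot and fell in bz1728 shoot (-0.65 ± 0.10, edgeR adjusted p = 0.00011). The 5 genes whose group means followed FLC most closely, among 16231 tested in both tissues, were AT5G48990 (r = 0.991), AT1G55460 (0.987), HD2B (0.982), NDPK1 (0.975) and RPL34 (0.975). Those closest to AGL20 were NFU1 (0.974), UMAMIT13 (0.969), AT1G80450 (0.958), RVE8 (0.956) and PLDGAMMA3 (0.948). Each r is over 10 group means, centred within tissue, and describes likeness of pattern alone. HD2B, for example, stood at 563 ± 56.4 CPM in taf12-t1 root against 270 ± 25.5 CPM in wt root.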

How the data were processed

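Transcript abundances of 40 libraries (4 of each genotype in each tissue) were analysed. Reads were trimmed with Trimmomatic 0.39 and quantified with kallisto 0.44.0, per the submitters' processing notes; the sources used here name no genome build, annotation or strand setting. The authors deposited, for each of 27655 transcripts and 1 per locus, kallisto's estimated count and its TPM, which is scaled by effective length to a total of 1000000. Between 97.7 and 98.5% of the estimated counts were whole (within 0.000001), and the rest were rounded before testing.

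Counts were tested with edgeR 4.0.16 in R 4.3.3: TMM scaling, filterByExpr by group (count 10, total 15), and a robust quasi-likelihood test. The 20 libraries of a tissue entered 1 fit, and all 40 entered the fit across tissues. Benjamini-Hochberg adjustment ran over all genes tested, and a gene was called at an adjusted p under 0.05. CPM values use TMM library sizes. Standard errors were derived from the F statistic. Low members outside the filter had exact permutation tests in CPM. Alternatives were RLE scaling, DESeq2 1.42.0, no filter, limma 3.58.1 on log2(TPM + 0.5), a replicate block, only the libraries compared, and leaving out each library. The tests were also run on simulated counts.

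The members and all gene lists were chosen with earlier results of these data known. From each list, up to 3 called genes with the smallest adjusted p per comparison could be named. Of the transcripts listed, 27444 matched RefSeq TAIR10.1 by identifier, all with the same length, and sequences were read from that build. Counts, not the number of libraries alone, limit the low members: before TMM scaling, 1 count was worth up to 0.375 CPM in root and 0.292 CPM in shoot.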

Additional observations from a re-analysis of the deposited data

Results flagged for a closer look

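Among 65 groups of 4 libraries in which a member had enough counts to be checked, 2 held a library far from the other 3, where chance flags about 1 in 20 groups. FLC stood at 4.05 CPM (25 counts) in nbr6-t1 shoot replicate 1, against 0.866 to 1.26 CPM in the other nbr6-t1 shoot libraries. MAF1 stood at 58.4 CPM in taf12-t1 root replicate 3, against 48.5 to 49.9 CPM in the other taf12-t1 root libraries.

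Several members changed differently in root and in shoot by a test of the difference itself in the fit of all 40 libraries. For bz1728 minus wt, the root change was lower than the shoot change for AGL20 (-1.37 ± 0.21, edgeR adjusted p = 2.5e-06), MAF3 (-0.82 ± 0.23, edgeR adjusted p = 0.0058) and SVP (-0.57 ± 0.17, edgeR adjusted p = 0.014). For nobiro6 minus bz1728, the root change of MAF2 was the higher, by 0.36 ± 0.11 (edgeR adjusted p = 0.02).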

How the results depend on the processing

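No called member changed direction under any of the 6 other settings or the 72 refits that left out 1 library. Of 537 member values under the other settings, 7 calls were lost and 12 gained; of 1072 values with a library left out, 35 were lost and 18 gained. On log2(TPM + 0.5), limma called 1 member in nbr6-t1 root (2 in edgeR), 1 in nobiro6 against wt in shoot (0), 6 for wt root against shoot (3) and 2 for the tissue difference of nobiro6 minus bz1728 (1), and put FLC in taf12-t1 shoot at 2.60. DESeq2 called 1 member in nobiro6 against bz1728 in root (2), as did the fit of only those libraries, in which FLC did not pass the filter, and 0 for the tissue difference of that comparison (1). With 1 library left out, the FLC difference in taf12-t1 ran from 3.93 to 6.06 in root and from 2.86 to 3.19 in shoot, and that of AGL20 from -3.76 to -3.27 and from -0.80 to -0.64. The number of members called then ran from 1 to 2 in nbr6-t1 root, 2 to 5 in bz1728 root, 0 to 3 in nobiro6 against bz1728 in root, 3 to 4 against wt in root, 1 to 2 in bz1728 shoot, 0 to 1 in nobiro6 against wt in shoot, 2 to 4 for the tissue difference of bz1728 and 0 to 3 for that of nobiro6 minus bz1728. It was 4 for wt root against shoot, where FT then passed the filter. The cause of these differences was not tested. The counts of members within a tissue include FLC in root and MAF5 in shoot. Both entered the fits of all libraries of that tissue only through taf12-t1, so no rise of either outside taf12-t1 is read from them. Counts of members across the tissues include MAF5, whose passing of that filter without taf12-t1 was not checked. Over all genes in shoot, the comparison of nobiro6 minus bz1728 with nbr6-t1 minus wt gave 221 calls in edgeR and 464 in DESeq2, and 118 to 367 with a library left out. Replicate numbers did not pair the libraries: same-numbered libraries of different genotypes had a median correlation of deviations of 0.02 in root and -0.01 in shoot. With a replicate block, only FLC in nobiro6 root against wt lost its call among the members (1.67, edgeR adjusted p = 0.058), a call from which no rise was read. Low counts limit FLC outside taf12-t1, MAF4, MAF5, FT and TSF, for which changes of a few fold may pass undetected.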
